A study of Mus musculus with 3 samples.

Results

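A set of 10 genes of antioxidant defence and detoxification was followed across the vessel classes of mouse skeletal muscle endothelium: Adh1, Gstp1, Gpx1, Gpx4, Prdx1, Sod1, Sod2, Cat, Hmox1 and Txn1, which are 10 of the 41605 gene rows in the count matrices. The members were taken by symbol. They were selected on their levels and running to sedentary ratios in these same libraries, and those of Adh1 and Gstp1 in particular were already known, so the values are a description and carry no test. All 10 had at least 20 UMIs (unique molecular identifiers, each standing for 1 captured transcript) in capillary-like, artery-like and vein-like cells. A pair of them stood apart from both other libraries in the running library. Adh1 was at 42.1 CPM in running capillary-like cells against 86.2 in sedentary and 120 in untreated ones. Gstp1 was at 140 CPM in running artery-like cells against 76.1 and 51.6. CPM is the UMI count of a gene scaled to the same total of UMIs in each class and library. The other 8 genes were within a log2 ratio of 0.32 of the sedentary level in running capillary-like cells.

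The cells were endothelial cells of the gastrocnemius, a calf muscle, from C57BL/6N mice, freed with Dispase II and Collagenase IV and sorted as CD31+, CD45- and SYTOX blue-, that is, alive and not leukocytes. Each of 3 groups was represented by 1 library of the 10x Chromium 3' kit. The sedentary library came from singly housed mice without a wheel, the running library from singly housed mice with voluntary access to a wheel for 14 days, and the untreated library carried only the label no treatment, so its housing is not known from the sources used here. Age, sex, batch and the number of pooled animals were not given in them either. With 1 library a group, batch and group cannot be told apart and no test between groups was possible: every interval below covers counting error in that library alone.

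Superoxide dismutases turn superoxide into hydrogen peroxide, which catalase, glutathione peroxidases and peroxiredoxins then remove, the peroxidases and peroxiredoxins with glutathione or thioredoxin as electron donors. Glutathione transferases, alcohol and aldehyde dehydrogenases and haem oxygenase dispose of reactive compounds and free haem. In endothelium superoxide dismutases limit the loss of nitric oxide to superoxide. Many genes of the enzymes named here are targets of the transcription factor NRF2, which binds the antioxidant response element.

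The starts of 3 genes are shown as RefSeq gives them on GRCm38.p6, each from 250 bases before to 50 bases after the start site, in the gene's own direction. Adh1 and Gstp1 are shown as the genes that differed most in the running library, and Prdx1 as one of the 2 members, with Sod1, whose window held the core of the antioxidant response element. Capitals mark every match to that core (TGACNNNGC), a TATA box (TATAAA), a GC box (GGGCGG) or a CCAAT box (CCAAT) on either strand, and a match on the opposite strand appears as its reverse complement.
Adh1, chr3:138277335-138277634, plus strand: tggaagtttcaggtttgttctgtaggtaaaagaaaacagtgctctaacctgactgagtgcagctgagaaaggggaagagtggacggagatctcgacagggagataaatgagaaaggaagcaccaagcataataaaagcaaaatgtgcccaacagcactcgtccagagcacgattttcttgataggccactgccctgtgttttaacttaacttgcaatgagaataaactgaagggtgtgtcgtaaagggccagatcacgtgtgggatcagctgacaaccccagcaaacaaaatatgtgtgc
Gstp1, chr19:4037863-4038162, minus strand: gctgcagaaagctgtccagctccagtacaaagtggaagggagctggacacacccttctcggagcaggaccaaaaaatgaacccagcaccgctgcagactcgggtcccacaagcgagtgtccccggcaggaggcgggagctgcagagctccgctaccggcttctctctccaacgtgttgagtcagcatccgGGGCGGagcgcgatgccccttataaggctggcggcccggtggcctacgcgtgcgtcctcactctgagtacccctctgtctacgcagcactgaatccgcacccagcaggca
Prdx1, chr4:116685349-116685648, plus strand: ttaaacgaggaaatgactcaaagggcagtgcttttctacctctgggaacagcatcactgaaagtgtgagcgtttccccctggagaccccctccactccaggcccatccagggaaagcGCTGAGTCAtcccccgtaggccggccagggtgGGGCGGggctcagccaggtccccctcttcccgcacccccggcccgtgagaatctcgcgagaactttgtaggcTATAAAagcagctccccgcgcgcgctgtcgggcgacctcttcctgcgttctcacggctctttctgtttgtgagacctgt

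The window of Adh1 held none of these motifs, and 45.3% of its bases were G or C, below the median of 52.7% over 27025 mouse promoter windows of the same length. This RefSeq window lies inside the span that GENCODE gives for Adh1 (chr3:138260991-138290698, plus strand) and not at its first base. Gstp1's window had 62.7% G or C and 1 GC box, at position -60. Prdx1 carried the core as TGACTCAGC on the opposite strand at -133, a GC box at -101 and TATAAA at -29. Sod1 carried it as TGACCACGC on the opposite strand at -56. Over all windows, 12.5% held the core, 14.2% TATAAA, 35.9% the GC box and 37.9% CCAAT. None of these motifs contains another. Windows were found for 9 of the 10 members, Hmox1 having no entry in the table. These matches describe letters in the window, not binding.

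The libraries held 4376 untreated, 4079 sedentary and 3260 running barcodes, with medians of 1582, 1122 and 1518 UMIs. After the cell filter, capillary-like cells numbered 2063, 2940 and 2280 in that order, artery-like cells 1494, 761 and 575, vein-like cells 634, 235 and 230, and lymphatic-like cells 27, 10 and 44. Each pair of libraries shared 20 to 32 barcode sequences and none was in all 3. Summed endothelial markers were present in each library of every class, while in capillary-like cells 8 macrophage markers summed to 3.20, 5.76 and 10.5 CPM (untreated, then sedentary, then running), with 6, 5 and 4 of them at 0, Adgre1, C1qa, C1qb and C1qc in all 3 libraries. The 8 lymphatic markers summed to 49.9, 79.0 and 167 CPM there. Both sums were highest in the running library, and their part in the capillary-like values was not tested. Vessel classes were rebuilt from markers, so names end in -like. Capillary-like cells comprised 4 clusters. Of these, cluster 2 was low in UMIs (median 686), was led by Aqp1, Pcdh12 and Kdr with no capillary marker among its top 10 genes, and supplied 150 of the untreated, 1226 of the sedentary and 523 of the running capillary-like cells, and cluster 6 was led by the interferon-response genes Ifit1 and Ifit3.

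Adh1 encodes a class I alcohol dehydrogenase that oxidises ethanol and retinol (GENCODE on GRCm38, chr3:138260991-138290698, plus strand). In capillary-like cells it had 375 UMIs in the library labelled no treatment, 299 in sedentary and 148 in running cells, or 120, 86.2 and 42.1 CPM. The running library was lowest, and its interval of 35.6 to 49.4 CPM did not overlap those of the sedentary (76.7 to 96.5) or untreated library (108 to 133). Running cells were therefore 2.04-fold below sedentary ones (log2 ratio -1.03, 95% interval -1.33 to -0.75) and 2.85-fold below untreated ones (log2 ratio -1.51, -1.80 to -1.24). The untreated and sedentary libraries also differed from each other, with untreated above sedentary by a log2 ratio of 0.48 (0.25 to 0.70).

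**Figure D1:**
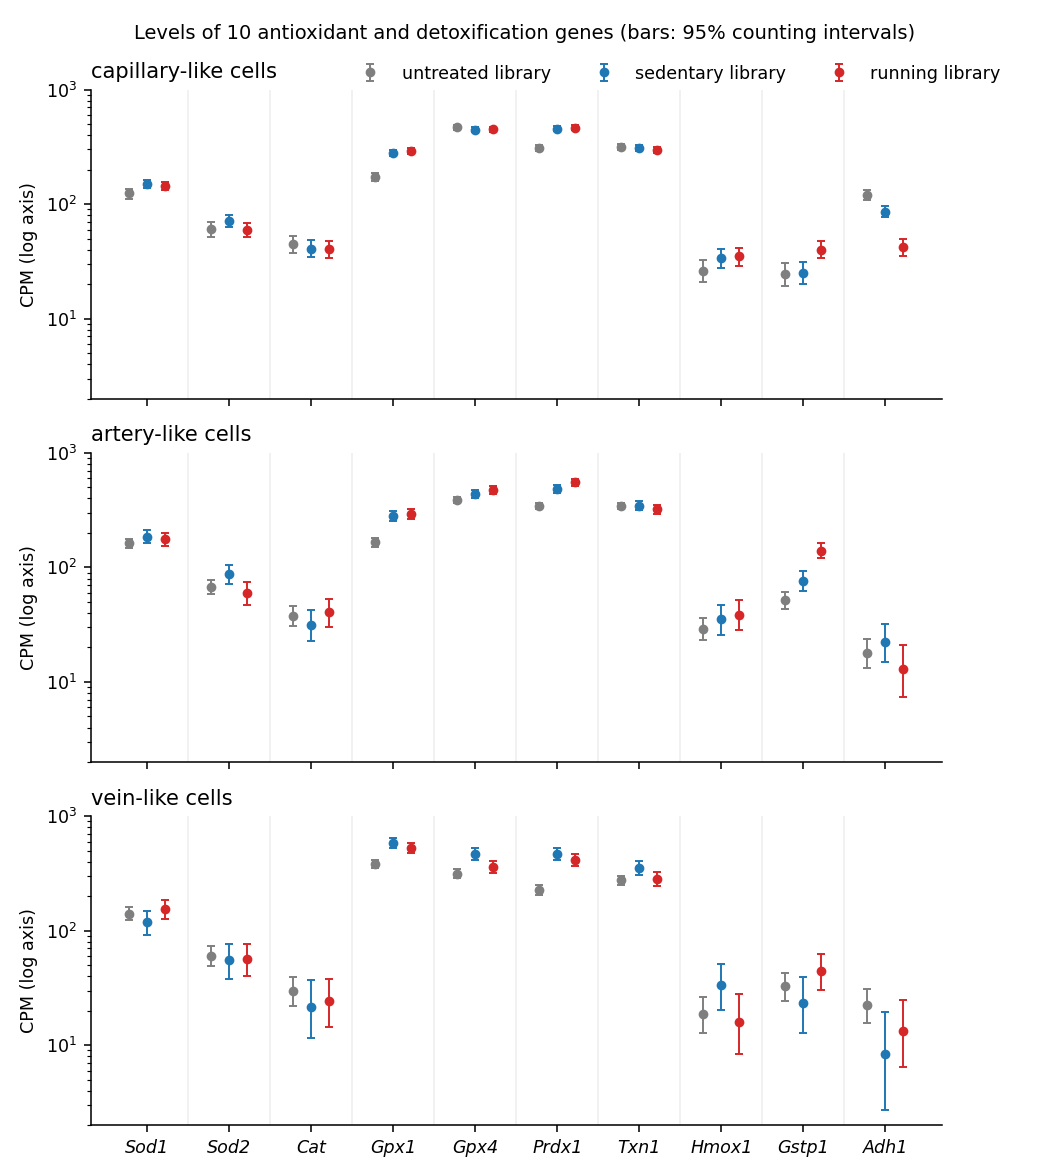
Level of each gene in CPM (log axis) for capillary-like, artery-like and vein-like cells, with 1 point per library and bars for the 95% Poisson interval of its count. Adh1 sits highest in capillary-like cells and is lowest there in the running library, at 42.1 CPM, Gstp1 is highest in running artery-like cells at 140 CPM, and Gpx1 is highest in vein-like cells.

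The Adh1 difference was seen in each capillary-like cluster. In cluster 0 the levels were 122, 63.6 and 33.8 CPM in the untreated, sedentary and running library, and in cluster 1 they were 129, 111 and 62.8. In the low-UMI cluster 2 they were 81.9, 82.9 and 36.5, so the running library was lowest there too. The running to sedentary log2 ratio was -0.91 (-1.41 to -0.42) in cluster 0, -0.82 (-1.29 to -0.37) in cluster 1 and -1.16 (-1.99 to -0.44) in cluster 2. Cluster 6 rested on 8, 16 and 4 UMIs and its ratio of -1.30 had an interval of -3.47 to 0.20. Clusters 0 and 1 differ in early-response genes, a set of 15 genes including Jun and Fos that are known to rise during tissue digestion: these made up 22066 to 25463 CPM in cluster 0 and 3676 to 4708 in cluster 1, over the 3 libraries. Their sum over all capillary-like cells was 15198, 10666 and 16414 CPM. There 5 of the 15 (Junb, Jund, Atf3, Ier2 and Hspa1a) were above both other libraries by a log2 ratio of at least 0.32 in the running library, beside 8.78% of all genes tested, and their part in the Adh1 values was not tested.

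Counted by cell, 14.6% of untreated, 8.61% of sedentary and 6.18% of running capillary-like cells had an Adh1 UMI. After thinning each cell to 1000 UMIs, which left 1571, 1366 and 1522 cells, the shares were 10.7%, 8.42% and 4.27%. In the erythrocyte-like cluster, 2 of 31 cells had an Adh1 UMI (6.45%, exact interval 0.791% to 21.4%) at a median of 2784 UMIs against 1401, 930 and 1333.5 for the capillary-like cells, and that interval covers all 3 capillary-like shares, so none of them was read against it. That cluster had 19.7 CPM of Adh1 (2.38 to 71.0). Adh1 was spread less evenly over cells than most genes of like mean in 2 libraries: the ratio of variance to mean of its thinned counts was 1.24 in the untreated and 1.13 in the sedentary library, where genes of like mean had medians of 1.03 and 1.01, and 0.957 in the running library.

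Among vessel classes Adh1 was highest in capillary-like cells in 3 of 3 libraries. Artery-like cells had 17.9, 22.3 and 12.9 CPM in the untreated, sedentary and running library, from 50, 29 and 16 UMIs. Vein-like cells had 22.4, 8.34 and 13.4 CPM, from 37, 5 and 10 UMIs. Vein-like cells were above artery-like cells in 2 of 3 libraries, while in the sedentary library artery-like cells were above by a log2 ratio of 1.31, and 1 of the 3 intervals left out 0. The artery-like ratio of running to sedentary was -0.77 with an interval that spans 0 (-1.76 to 0.14), so no direction in artery-like cells was detectable at this depth, and the value was 0.60 after thinning each cell to 1000 UMIs. Adh1 was also the only member among the variable genes used for clustering. With the members and the other listed genes left out of the clustering, its capillary-like ratio to the untreated library was -1.18 and untreated to sedentary was 0.16. Among the other clusters, the pericyte-like or smooth muscle-like cluster of 74 cells had 41.3 CPM of Adh1 (19.8 to 75.9) and the unnamed Plvap, Penk and Itm2a cluster of 133 cells had 2.74 (0.0692 to 15.2).

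Gstp1 encodes the pi class glutathione transferase, which joins glutathione to electrophiles (chr19:4035407-4037985, minus strand). Artery-like cells had 144 UMIs in untreated, 99 in sedentary and 173 in running cells, or 51.6, 76.1 and 140 CPM. Running was highest, with a log2 ratio of 0.88 to sedentary (95% lower bound 0.51) and of 1.44 to untreated (1.11 to 1.77), while sedentary was also above untreated (untreated to sedentary -0.56, -0.94 to -0.18). The count was split over both large artery-like clusters, at 48.4, 65.6 and 113 CPM in cluster 3 and 66.4, 85.4 and 179 in cluster 5. Cells with a Gstp1 UMI after thinning were 5.25%, 6.79% and 11.4% of artery-like cells, and 8.97%, 11.3% and 24.7% before it. The erythrocyte-like share was again 6.45%, from 2 of 31 cells before thinning (exact interval 0.791% to 21.4%).

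Capillary-like cells showed the same order of running above the rest at a lower level. They had 77, 87 and 141 Gstp1 UMIs (untreated, then sedentary, then running), or 24.7, 25.1 and 40.1 CPM. Cells with a Gstp1 UMI were 3.68%, 2.93% and 6.01% of them, and 2.42%, 3.00% and 4.73% after thinning. The erythrocyte-like 6.45%, not thinned and at a median of 2784 UMIs, had an interval of 0.791% to 21.4%. That interval covers all of these capillary-like shares, so none of them was read against it. The erythrocyte-like cluster had 19.7 CPM of Gstp1 (2.38 to 71.0). Here the untreated and sedentary intervals overlapped (log2 ratio -0.02, -0.49 to 0.44), and running was 1.60-fold above sedentary (0.67, 0.28 to 1.08) and 1.62-fold above untreated (0.70, 0.29 to 1.12). In vein-like cells the levels were 32.7, 23.3 and 44.3 CPM and the running to sedentary ratio of 0.90 spanned 0 (-0.02 to 1.94). The running library was highest in 7 of 8 capillary-like, artery-like and vein-like clusters, the exception being artery-like cluster 10 with 3 sedentary and 4 running UMIs. Artery-like cells were above capillary-like and vein-like cells in 3 of 3 libraries.

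Reads of Gstp1 can be confused with those of a neighbour. The last 300 bases of its transcript are 100% identical to Gstp2 (chr19:4040285-4046023), and how shared reads were treated is not given in the sources used here. The Gstp2 row held 1, 3 and 5 UMIs in capillary-like cells and 8, 6 and 5 in artery-like cells, and the Gstp3 row held at most 1. The values given for Gstp1 are thus for its own row, and what Gstp2 contributes to the tissue was not tested.

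**Figure D2:**
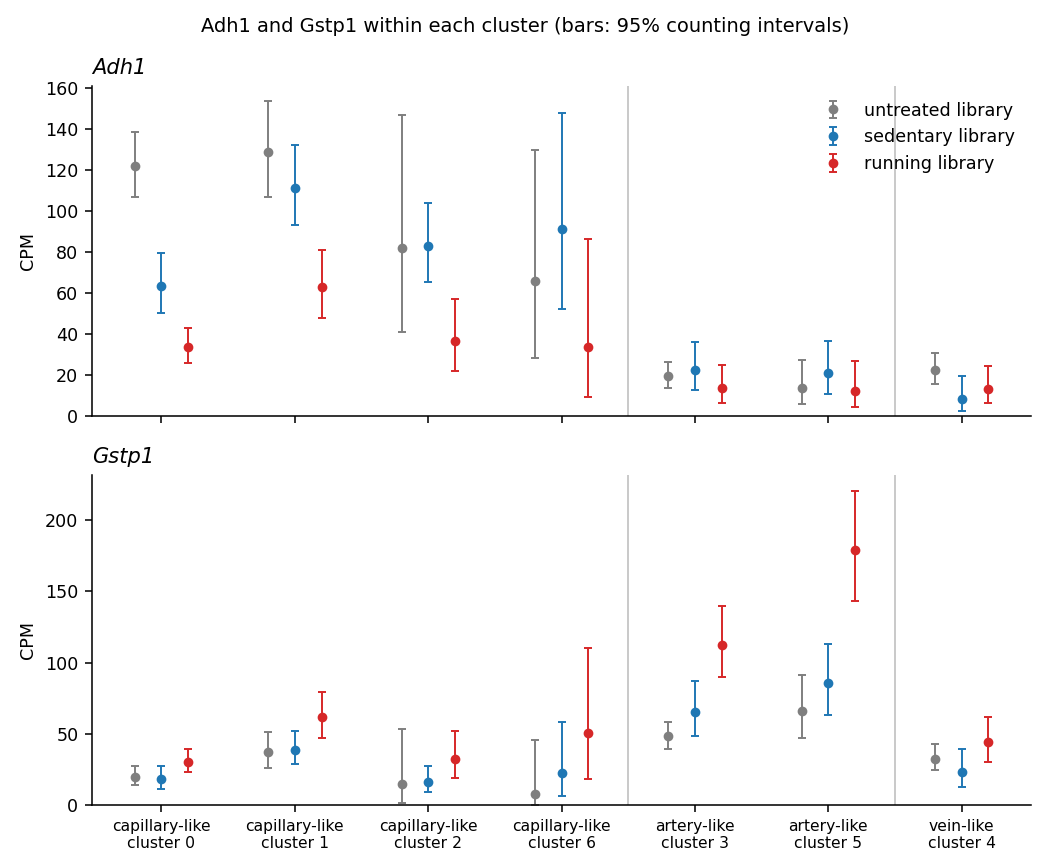
CPM of Adh1 (upper panel) and Gstp1 (lower panel) in 4 capillary-like, 2 artery-like and 1 vein-like cluster, with 1 point per library and bars for the 95% Poisson interval. Running is lowest for Adh1 in every capillary-like cluster and highest for Gstp1 in every cluster shown.

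A gene was called in the running library when its log2 ratio to each of the other libraries was at least 0.32 in the same direction. In capillary-like cells 1 of 10 members was called higher (Gstp1) against 8.78% of 11788 genes tested, and 1 was called lower (Adh1) against 6.66%. In artery-like cells 1 was called higher (Gstp1) against 10.9% of 10520 genes, and 1 lower (Adh1) against 9.51%, a count that was 0 under 7 other settings. In vein-like cells 1 was called higher (Gstp1) against 10.7% of 9381 genes and 0 lower against 10.7%. Both ratios of vein-like Gstp1 had intervals that span 0 (to untreated 0.45, -0.23 to 1.09), and the count was 0 without a cell filter or with a 1.5-fold threshold. Counts of this size are near the background share, and the set was chosen with Adh1 and Gstp1 known. The median running to sedentary log2 ratio of the members was -0.006 in capillary-like cells, where all genes had -0.013, and 0.080 against 0.012 in artery-like cells. Against the untreated library the median over all capillary-like genes was 0.11 with class totals and 0.001 with TMM scaling (trimmed mean of M values), so ratios to that library hold about 0.11 that another scaling removes.

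**Figure D3:**
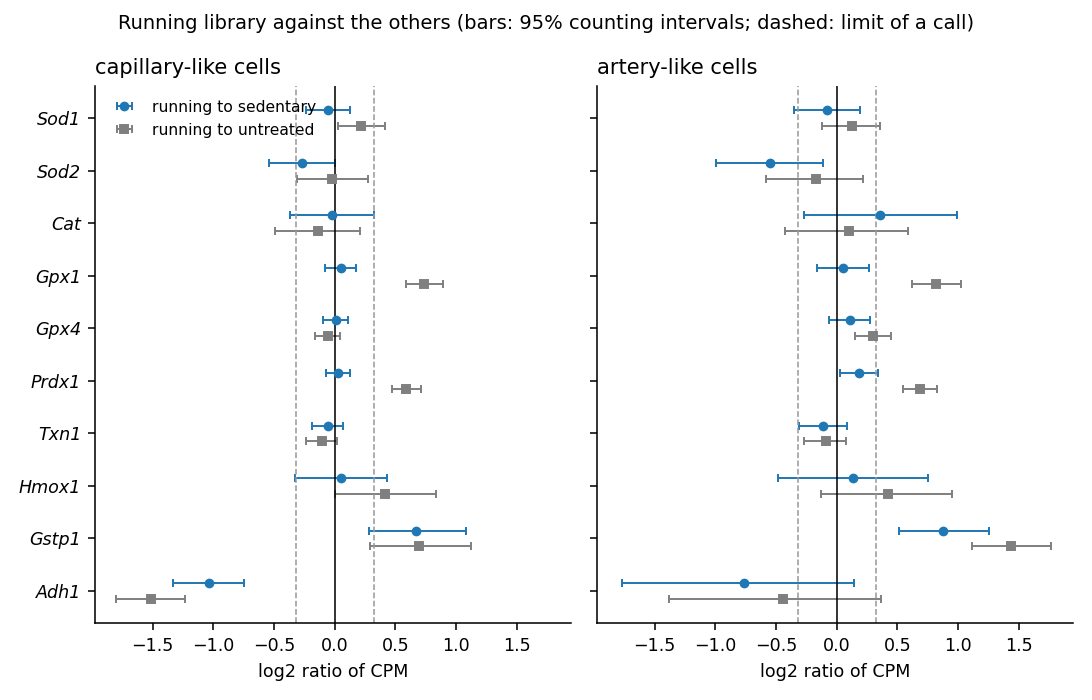
Log2 ratio of the running library to the sedentary (circles) and the untreated library (squares) for each member in capillary-like and artery-like cells, with 95% counting intervals and dashed lines at the limit of a call, 0.32. Adh1 in capillary-like cells and Gstp1 in both classes lie beyond the lines on one side for both ratios, while Gpx1 and Prdx1 lie near 0 against sedentary and above 0.5 against untreated.

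Sod1, the copper-zinc superoxide dismutase of the cytosol (chr16:90220754-90226329, plus strand), had 124, 150 and 144 CPM in capillary-like cells (untreated, then sedentary, then running). The running and sedentary levels overlapped (log2 ratio -0.05, -0.23 to 0.13). Artery-like cells had 162, 186 and 176 CPM, above capillary-like cells in 3 of 3 libraries. Sod2, the manganese enzyme of mitochondria (chr17:13006846-13040063, plus strand), had 60.2, 71.5 and 59.4 CPM in capillary-like cells and 67.7, 87.6 and 59.8 in artery-like cells. In artery-like cells its running to sedentary log2 ratio was -0.55 (-0.99 to -0.12), but running and untreated overlapped (-0.17, -0.59 to 0.22), so Sod2 was not called. With each cell thinned to 1000 UMIs the ratios were -1.01 and -0.48, past the limit of a call given above.

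Catalase, which splits hydrogen peroxide in peroxisomes, is encoded by Cat (chr2:103453849-103485160, minus strand). Its levels were 44.5, 40.9 and 40.4 CPM in capillary-like cells (untreated, then sedentary, then running) and 38.0, 31.5 and 40.4 in artery-like cells, with overlapping intervals throughout. Vein-like cells had 29.7, 21.7 and 24.2 CPM, below capillary-like cells in 3 of 3 libraries with an interval that left out 0 in each.

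Gpx1, the glutathione peroxidase of the cytosol and mitochondria (chr9:108338903-108340343, plus strand), set the untreated library apart and not the running one. Capillary-like cells had 542, 972 and 1019 UMIs (untreated, then sedentary, then running), or 174, 280 and 290 CPM. Running and sedentary overlapped (log2 ratio 0.05, -0.08 to 0.18), and running was 1.67-fold above untreated (0.74, 0.59 to 0.89). Artery-like cells followed the same order, with 167, 284 and 294 CPM. Vein-like cells had 383, 582 and 529 CPM, above both other classes in 3 of 3 libraries. The log2 ratio of capillary-like to vein-like cells was -1.14, -1.06 and -0.87. The unnamed cluster led by Plvap, Penk and Itm2a had 736 CPM (650 to 829) over the 3 libraries together.

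Prdx1, a peroxiredoxin that uses thioredoxin to reduce peroxide (chr4:116685544-116700822, plus strand), repeated that split between libraries. Capillary-like cells had 307, 454 and 463 CPM in the untreated, sedentary and running library, artery-like cells 345, 488 and 554, and vein-like cells 228, 465 and 415. Untreated was lowest in all 8 clusters of these classes for Prdx1, and in 7 of 8 for Gpx1. The artery-like untreated to sedentary log2 ratio of Prdx1 was -0.50 for the class. It was smaller within the large clusters, at -0.09 (-0.32 to 0.15) in cluster 3 and -0.25 (-0.46 to -0.04) in cluster 5. Cluster 5, higher in Prdx1 than cluster 3, held 391 of 1494 untreated and 415 of 761 sedentary artery-like cells. The part of this cluster mix in the class ratio was not tested. The running to sedentary log2 ratio of Prdx1 was 0.03 (-0.07 to 0.13) in capillary-like cells and 0.18 (0.03 to 0.34) in artery-like cells. Within artery-like cluster 3 it was 0.50 (0.24 to 0.77), and within cluster 5 it was 0.11 (-0.095 to 0.31). In artery-like cluster 10, with 11 sedentary and 9 running UMIs, it was -1.01 (-2.47 to 0.39). By the log2 ratio limit of 0.32, 33.2% of all genes were lower in untreated than in sedentary capillary-like cells, and 3 of 10 members were (Gpx1, Prdx1 and Hmox1). The Hmox1 interval spanned 0 (-0.36, -0.79 to 0.06). The share higher in untreated was 18.9%, and 1 of 10 members was among them (Adh1).

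Markers of erythrocytes moved with that split: their sum over 7 globin and related genes was 97.6, 969 and 688 CPM in capillary-like cells (untreated, then sedentary, then running). At the ratio of Gpx1 to these markers in the erythrocyte-like cluster (35 to 55392 UMIs), the carried Gpx1 would be 0.0617, 0.612 and 0.435 CPM. The carried Prdx1 would be 0.0317, 0.315 and 0.224 CPM. These values assume that carried RNA has the make-up of that cluster of 31 cells. The part of erythrocyte RNA in the split between libraries was not tested, and with 1 library a group it cannot be told apart from other differences.

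Gpx4, which reduces lipid hydroperoxides in membranes (chr10:80047166-80056439, plus strand), had 469, 448 and 451 CPM in capillary-like cells, with a running to sedentary log2 ratio of 0.01 (-0.09 to 0.11). In artery-like cells it was 387, 441 and 475 CPM. The last 300 bases of its transcript are 99.7% identical to Gpx4-ps2, whose own row held 475, 639 and 534 UMIs in capillary-like cells, so the split between these rows is uncertain. Txn1, the cytosolic thioredoxin that supplies electrons to peroxiredoxins (chr4:57943373-57956411, minus strand), had 317, 307 and 295 CPM in capillary-like cells and 342, 347 and 321 in artery-like cells. Neither class showed a running to sedentary difference beyond counting error, at -0.06 (-0.18 to 0.07) and -0.11 (-0.31 to 0.09). In vein-like cells both genes were highest in the sedentary library. Gpx4 had 315, 472 and 361 CPM there, with a running to sedentary log2 ratio of -0.39 (-0.63 to -0.14), and Txn1 had 276, 352 and 282 CPM, with -0.32 (-0.60 to -0.04).

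Hmox1, the inducible haem oxygenase (chr8:75093621-75100589, plus strand), had 82, 117 and 123 UMIs in capillary-like cells (untreated, then sedentary, then running), or 26.3, 33.7 and 35.0 CPM. The libraries overlapped, and running to sedentary was 0.05 (-0.33 to 0.43). Artery-like cells had 29.0, 35.3 and 38.8 CPM and vein-like cells 18.8, 33.4 and 16.1, the latter from 31, 20 and 12 UMIs. In the sedentary library the variance to mean ratio of its thinned capillary-like counts was 1.42, where genes of like mean had a median of 1.01, against 0.973 in the untreated and 0.964 in the running library. Only 43 of 1366 thinned sedentary cells had an Hmox1 UMI. A single cell with several UMIs can set such a ratio, so no unevenness was read from it.

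Correlations within single cells were near 0 at this depth. Over the 45 pairs of members in each of 3 libraries, Pearson's r across capillary-like cells thinned to 1000 UMIs lay between -0.061 and 0.069. Cells of a library share its preparation and these counts are sparse, so the values are given as a description.

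The profiles most like each gene were ranked over 11 class and library profiles of log2(CPM + 10), among 9954 genes. For Adh1 they were Fcho2 (r = 0.946), Ssh2 (0.912), Lrrc8a (0.910), AC153524.2 (0.891) and Nlk (0.888). For Gstp1 they were Tmem132a (0.940), Cdca7 (0.877), Grpel2 (0.858) and the arterial markers Fbln5 (0.854) and Gja4 (0.850). For Hmox1 they were Anapc15 (0.904), Ube2v2 (0.902), Spsb3 (0.901), Cmas (0.888) and Thoc1 (0.882). With log2(CPM + 1) in place of log2(CPM + 10), 1 of the 5 genes named for Adh1, 4 of the 5 for Gstp1 and 3 of the 5 for Hmox1 were again among the top 5. Profiles of 1 library share its depth and preparation.

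Of 76 further genes of the same pathways, 60 had enough UMIs in capillary-like cells, and 5 were called higher and 2 lower in the running library, beside the 8.78% and 6.66% of all genes. Nqo1, the quinone reductase and a known NRF2 target, had 3.20, 7.78 and 12.5 CPM in the untreated, sedentary and running library, and Maff, a small partner protein of NRF2, had 12.2, 20.2 and 32.1. Their running to sedentary log2 ratios were 0.67 (-0.04 to 1.43) and 0.67 (0.23 to 1.12). Gss, glutathione synthetase, was at 0.41 (-0.32 to 1.18). Gpx3 and Gsto1, named after their values were seen, completed the 5, from 1, 4 and 17 UMIs and from 6, 9 and 12 UMIs. Txnip, which binds and inhibits thioredoxin, was called lower, at 892, 727 and 574 CPM (log2 ratio -0.34, -0.43 to -0.26), as was the carbonyl reductase gene Cbr3, from 20, 19 and 12 UMIs. Both Cbr3 intervals spanned 0 (to sedentary -1.859 to 0.435, to untreated -2.074 to 0.194). In artery-like cells Cbr3 was called higher, from 7, 9 and 12 UMIs (log2 ratio to sedentary 0.47, -0.88 to 1.91), and is named for that class after its values were seen. The NRF2 gene itself, Nfe2l2, had 109, 90.8 and 80.7 CPM, and the gene of its inhibitor, Keap1, 73.0, 93.7 and 76.5, and neither was called; both were named after their values were seen.

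Of 12 tested genes on the glutathione transferase list, 5 were called higher and 0 lower in artery-like cells, Gstp1 being 1 of the 5, beside the 10.9% and 9.51% of all genes. Among them were Gstt1 at 16.8, 16.1 and 33.1 CPM (log2 ratio to sedentary 1.02, 0.25 to 1.87) and the microsomal Mgst1 at 75.9, 82.2 and 119 (0.53, 0.16 to 0.90). Gstm5 and Gstz1, named after their values were seen, completed the 5 from 7 sedentary and 11 running UMIs each, with intervals that span 0 (-0.77 to 2.33). In capillary-like cells 2 of 12 were called higher. The median running to sedentary log2 ratio of the list was -0.07 in capillary-like cells, where all genes had -0.013, and 0.32 in artery-like cells, where all genes had 0.012. Artery-like Nqo1 had 7.88, 10.8 and 21.01 CPM (0.94, -0.02 to 2.02), the aldehyde dehydrogenase gene Aldh9a1 20.1, 24.6 and 35.6 (0.53, -0.16 to 1.24), and thioredoxin reductase Txnrd1 35.1, 53.8 and 76.0 (0.50, 0.04 to 0.97). Without the members, 11 of 59 pathway genes were called higher and 1 lower in artery-like cells, beside the 10.9% and 9.51% of all genes. The gene called lower was Gpx8, from 31, 14 and 4 UMIs, named after its values were seen. In these artery-like cells muscle fibre markers summed to 41.2, 43.8 and 179 CPM and macrophage markers to 6.45, 5.38 and 42.8, both highest in the running library, with 5 of 8 macrophage markers at 0 there; their part in the artery-like values was not tested.

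**Figure D4:**
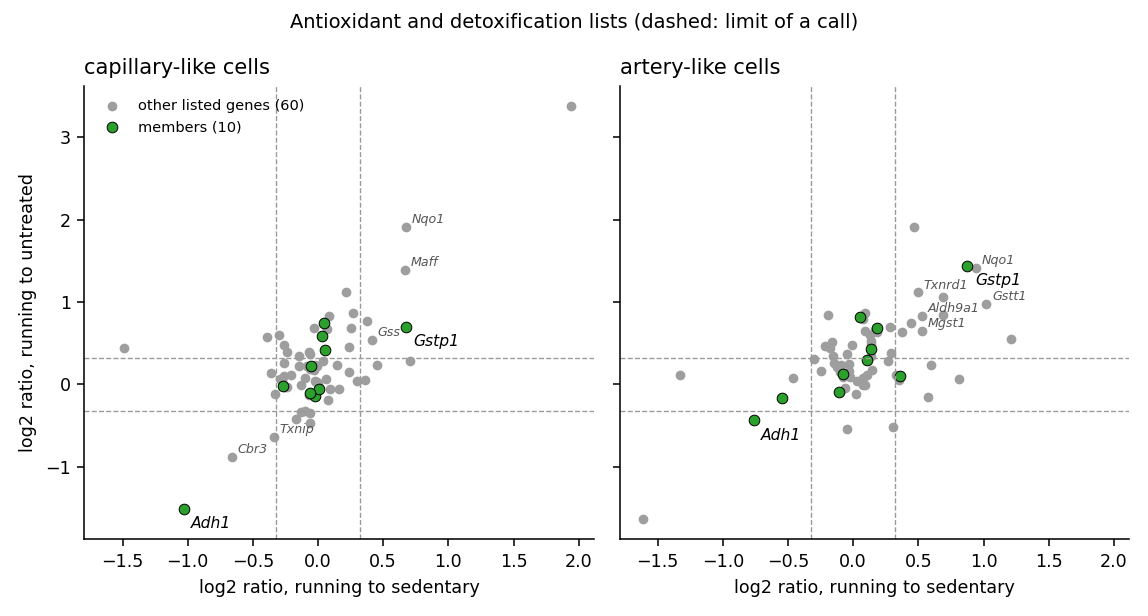
Running to sedentary log2 ratio (horizontal axis) against running to untreated log2 ratio (vertical axis) for the members and the other tested genes of the antioxidant and detoxification lists, in capillary-like and artery-like cells, with dashed lines at the limit of a call, 0.32. Both axes share the running library, so their likeness is no result. Adh1 lies at the lower left in capillary-like cells and Gstp1 at the upper right in both.

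In vein-like cells, 5 of 57 pathway genes were called higher and 2 lower, beside 10.7% of all genes each way. Txnrd1 had 38.1, 51.7 and 69.8 CPM in the untreated, sedentary and running library (log2 ratio to sedentary 0.42, -0.24 to 1.12), and Blvrb, a biliverdin reductase, 69.6, 66.7 and 99.3 (0.57, 0.001 to 1.17). Pgd, of the pentose phosphate pathway, had 20.6, 20.01 and 26.9 (0.40, -0.68 to 1.59) and Aldh3a2, an aldehyde dehydrogenase, 17.6, 16.7 and 25.5 (0.58, -0.56 to 1.88). Of these 4 intervals only that of Blvrb left out 0. Glrx, named after its values were seen, completed the 5. Txnip was lower in running vein-like cells as well, at 676, 490 and 375 CPM (log2 ratio -0.39, -0.63 to -0.15), and the other gene called lower was Gss, named here after its values were seen. In artery-like cells Txnip had 867, 614 and 594 CPM and was not called. Its log2 ratio there was -0.05 to sedentary (-0.19 to 0.10) and -0.55 to untreated (-0.67 to -0.43). For most lists, the running to sedentary interval of the most abundant gene in capillary-like cells included 0: the ferritin light chain gene Ftl1 was at 0.001 (-0.04 to 0.04), the aldehyde reductase gene Akr1a1 at -0.08 (-0.20 to 0.03), Gclm of glutathione synthesis at 0.08 (-0.20 to 0.36), Sqstm1 at -0.03 (-0.24 to 0.18) and Cyba, a subunit of NADPH oxidase, at 0.03 (-0.12 to 0.17). The intervals of Gstm1, at -0.24 (-0.34 to -0.14), and of Txnip, given above for capillary-like cells, left out 0. So did that of Jun, the most abundant early-response gene, at 0.71 (0.66 to 0.76).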

How the data were processed

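The chemistry was version 2 of the 10x Chromium 3' kit, per the labels' protocols. Cell Ranger 2.0.2 and the build GRCm38.p5 are named in the submitters' processing notes. Each deposited matrix gives whole UMI counts by gene and barcode, not normalized. The gene annotation and the calling of cells are not given in the sources used here. Barcodes with at least 300 genes and at most 10% mitochondrial counts were kept, 11554 of 11715. Scrublet marked 0 of them, so doublets were in effect not removed, and leaving out the highest 5% of its scores was tried instead. Cells of all libraries were clustered together in scanpy 1.11.5 (2000 variable genes scaled to unit variance, 30 components, 15 neighbours, Leiden resolution 1.0), without integration. Clusters were named from marker lists, and the score limits (at least 0.5 for a vessel class, -0.5 for endothelial genes and 1.0 with at least 2 markers among the top 20 genes for other cells) were set after the data were seen. Of the kept cells, 133 in 1 cluster stayed unnamed. UMIs were summed by class and library and divided by the class total (CPM). Levels carry exact 95% Poisson intervals, ratios exact conditional intervals with a prior count of 0.5 in the log2 ratio, and shares exact Clopper-Pearson intervals; all cover counting error only. No test between groups was made, as each group is 1 library. A call needed a log2 ratio of 0.32 to both other libraries, among genes with at least 20 UMIs. The intervals and calls were checked on simulated counts. Gene positions are GENCODE M21 on GRCm38, and promoter windows are RefSeq on GRCm38.p6. Copies were sought by aligning the last 300 transcript bases, and TMM factors came from edgeR 4.0.16.

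Named genes were the 10 members, listed pathway genes called with at least 50 UMIs (at most 4 each way in a class, by the smaller absolute log2 ratio), the most abundant gene of each list, the 5 profiles most like Adh1, Gstp1 and Hmox1, and Gstp2 and Gstp3. The members, lists and calls were chosen with earlier results of these data known.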

Additional observations from a re-analysis of the deposited data

Results flagged for a closer look

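Adh1 lay in opposite directions between vessel classes when the running library was set against the sedentary one: the log2 ratio was -1.03 in capillary-like cells and -0.77 in artery-like cells, and 0.62 in vein-like cells. The vein-like value rested on 5 sedentary and 10 running UMIs, with a 95% counting interval of -0.996 to 2.59, and the artery-like interval was -1.76 to 0.14. When clustered without members and pathway genes the vein-like value was -0.01. Against the untreated library the vein-like ratio was -0.69 (-1.91 to 0.30), the same direction as in the other classes. With 1 library in each group the difference between classes was not tested.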

How the results depend on the processing

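Over the alternatives that recompute it, the capillary-like running to sedentary log2 ratio of Adh1 lay between -1.12 and -0.92 and that of Gstp1 between 0.56 and 1.05, and the artery-like ratio of Gstp1 between 0.65 and 0.88. Against the untreated library capillary-like Adh1 was -1.18 when clustered without members and pathway genes. In artery-like cells 0 members were called lower with Leiden resolution 0.5, clustering without members and pathway genes, each library clustered alone, at least 500 genes per cell, the highest 5% of doublet scores left out, a 1.5-fold threshold or at least 100 UMIs, and 2 were called lower against the sedentary library only, where 2 were called higher. The artery-like Adh1 ratio turned to 0.60 against sedentary and 0.038 against untreated with cells thinned to 1000 UMIs, and to 0.23 against untreated when clustered without members and pathway genes. With thinning the 1 member called lower in artery-like cells was Sod2 (-1.01 against sedentary, -0.48 against untreated). Member ratios near 0 changed sign under some settings, as did some further from 0. Vein-like Adh1, running to untreated, was -0.69 and lay between -2.05 and 0.25, with the same sign in 13 of 18 alternatives. Artery-like Adh1, untreated to sedentary, was -0.33 and reached 0.56. Vein-like Cat, untreated to sedentary, was 0.41 and fell to -0.17. In vein-like cells 0 members were called higher without a cell filter or with a 1.5-fold threshold, and 3 against the sedentary library only. There 1 was called lower when clustered without members and pathway genes, and 2 against the sedentary library only. The cause of these changes was not tested, apart from the stricter limits and the single comparison by construction. Unscaled clustering, calls against sedentary only and adding annotated copies were chosen after seeing the data. No paired analysis was possible because each group has 1 library. Depth limits Adh1 outside capillary-like cells (5 to 50 UMIs a library) and Hmox1 in vein-like cells (12 to 31).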
